A study of Mus musculus with 10 samples.

Results

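A group of 10 genes that recruit neutrophils or drive their production was followed in mouse lung squamous cell carcinoma (SCC). They were the chemokine ligand genes Cxcl1, Cxcl2, Cxcl3, Cxcl5 and Ppbp, the chemokine receptor gene Cxcr2, the gene of granulocyte colony stimulating factor (G-CSF) Csf3 with its receptor gene Csf3r, and the other colony stimulating factor genes Csf1 and Csf2. These 10 genes were chosen by name, with earlier results of these data known. All had a probe on the array, among 19096 genes with a named probe. Each gene was read from the probe with the highest mean over the 10 arrays. The 10 genes had 11 probes in all, since only Cxcr2 had a second one.

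The WT group was 5 whole lungs from Lkb1f/f mice, which carry the floxed Lkb1 gene without Cre. The SCC group was 5 whole lung tumours from CCSPiCreLkb1f/f mice, in which the Club Cell Secretory Protein promoter drives Cre in airway epithelium, so that Lkb1 is lost there. All were of strain B6.129 and aged 13 months, and per the labels none had received a treatment. Each sample's RNA was labelled with Cy3 and read on its own one-colour Agilent array, and the groups were compared to learn which transcripts distinguish a squamous tumour lacking Lkb1 from normal lung. The labels name no pooling and no sex.

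CXC chemokines with a glutamate-leucine-arginine motif before the first cysteines bind Cxcr2 on neutrophils and draw them from blood into tissue. All of the ligand genes followed here encode such chemokines, and epithelial cells, macrophages and stromal cells are known to switch several of them on when NF-kB is active. G-CSF, encoded by Csf3, makes the bone marrow release more neutrophils and acts through Csf3r. Csf1 encodes the growth factor of macrophages, and Csf2 encodes GM-CSF, which in the lung is made by alveolar type 2 cells and is needed for alveolar macrophages to mature.

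The ligand genes lie in 1 cluster on chromosome 5. The sequences before the start sites of Cxcl3, Cxcl1, Cxcl2 and Ppbp are shown because these neighbours all rose in SCC, while a stretch of letters is shared by the first 3 and missing in the last. Each is the 250 bases before the start in RefSeq annotation of GRCm38.p6, plus strand, 5′ to 3′, at chr5:90785851-90786100, chr5:90890995-90891244, chr5:90903649-90903898 and chr5:90768268-90768517 in that order. Capitals mark GGGAATTTCCC, 11 bases, the longest run that the 250 bases of Cxcl1, Cxcl2 and Cxcl3 have in common, which reads as an NF-kB-type motif.
Cxcl3: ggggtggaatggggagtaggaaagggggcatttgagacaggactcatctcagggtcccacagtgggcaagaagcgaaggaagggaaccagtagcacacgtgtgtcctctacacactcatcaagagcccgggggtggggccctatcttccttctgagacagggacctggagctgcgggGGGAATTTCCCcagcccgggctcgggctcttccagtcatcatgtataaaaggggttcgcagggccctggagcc
Cxcl1: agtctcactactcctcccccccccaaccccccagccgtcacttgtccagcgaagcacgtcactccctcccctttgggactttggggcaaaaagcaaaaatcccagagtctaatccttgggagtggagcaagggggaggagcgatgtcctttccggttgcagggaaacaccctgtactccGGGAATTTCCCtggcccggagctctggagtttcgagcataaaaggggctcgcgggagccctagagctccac
Cxcl2: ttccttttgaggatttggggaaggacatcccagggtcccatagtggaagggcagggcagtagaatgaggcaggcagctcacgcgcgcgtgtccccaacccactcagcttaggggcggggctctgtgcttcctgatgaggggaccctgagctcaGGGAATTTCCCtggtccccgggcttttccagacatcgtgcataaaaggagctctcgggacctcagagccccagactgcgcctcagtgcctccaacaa
Ppbp: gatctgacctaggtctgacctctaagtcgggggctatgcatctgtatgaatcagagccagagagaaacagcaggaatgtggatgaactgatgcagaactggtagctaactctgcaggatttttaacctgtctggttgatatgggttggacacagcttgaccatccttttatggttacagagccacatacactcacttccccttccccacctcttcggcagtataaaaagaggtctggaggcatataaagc
The run lay at -73 to -63 from the start in Cxcl3, at -71 to -61 in Cxcl1 and at -97 to -87 in Cxcl2. It was chosen from these sequences, so its presence there is a description. Searched on both strands in the 300 bases from 250 before to 50 after each start, it was held by 14 of 32851 RefSeq promoters (0.0426%). Among the 8 of the 10 genes with a promoter in the table, it was in these 3 and not in Ppbp, Cxcr2, Csf3r, Csf1 or Csf2. Cxcl5 and Csf3 had no entry. Searched in the same way, the AP-1 motif TGANTCA, found in 7.81% of all promoters, was in that of Ppbp at -204 to -198, and the STAT motif TTCNNNGAA, found in 8.30%, was in none of the 8. The TATA letters TATAAA, found in 13.6%, stood at -30 to -25 in both Cxcl3 and Ppbp, and again at -8 to -3 in Ppbp. No overlap existed between these matches. A match is a description of the letters, and the arrays hold no measure of binding.

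Values are log2 normalized signals of 1 probe, so a difference of 1 is a 2-fold change, and the level of a probe cannot be set against that of another. A probe was called when limma's adjusted p over 30374 tested probes was below 0.05 and the difference was at least 2-fold. It was tested when its signal was well above background on at least 4 of 5 arrays of a group. The tumours matched their label, since 7 of 7 squamous cell markers were called higher in SCC. Krt5, a basal keratin, was higher by 11.35 and Trp63, the squamous master regulator, by 7.44. SCC replicate 2 stood apart, with a mean squamous marker signal of 11.42, where the other 4 tumours were between 15.01 and 15.40 and the WT lungs between 4.99 and 5.48. It was also the only tumour with Xist low (2.58) and the Y-linked Ddx3y high (11.28), as WT replicates 2 and 3 were. SCC replicate 5 had 90.2% of probes well above background, against 71.0% to 74.5% on the other 9 arrays, and showed both Xist (13.75) and Ddx3y (8.34). Slide 1 held 4 WT arrays, slide 2 held WT replicate 5 with the first 3 tumours, and slide 3 held SCC replicates 4 and 5. Values are therefore given for each array, and differences also without SCC replicate 2 and within slide 2.

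Of the 10 genes, 8 were called higher in SCC, 1 was called lower and 1 was not called. That is 90.0%, where 22.9% of all tested probes were called, 9.92% higher and 13.0% lower. Their median difference was 2.08, against -0.09 over all tested probes. As the 10 genes were chosen with earlier results of these data known, these contrasts are descriptions. Values of the WT and SCC arrays did not overlap for 4 genes, Cxcl3, Cxcl5, Csf3 and Csf2, where 37.4% of all tested probes showed no overlap, 16.3% with higher and 21.0% with lower values in SCC. Cxcl3, Cxcl5 and Csf3 were well above background on 2, 2 and 0 of 5 WT arrays. They were thus tested only through the tumours, which favoured a higher call, and their calls and lack of overlap are descriptions. SCC replicate 2 was the lowest tumour for 8 of the 10 genes, as for 27.0% of all tested probes. It was so for 7 of the 8 genes called higher, as for 71.2% of all probes called higher. On the other 4 tumours all 8 genes called higher were above every WT lung. The share of all probes called higher for which this holds was not taken, so it is a description. The RNA came from whole tissue, so more cells of a type and more RNA per cell cannot be told apart.

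**Figure D1:**
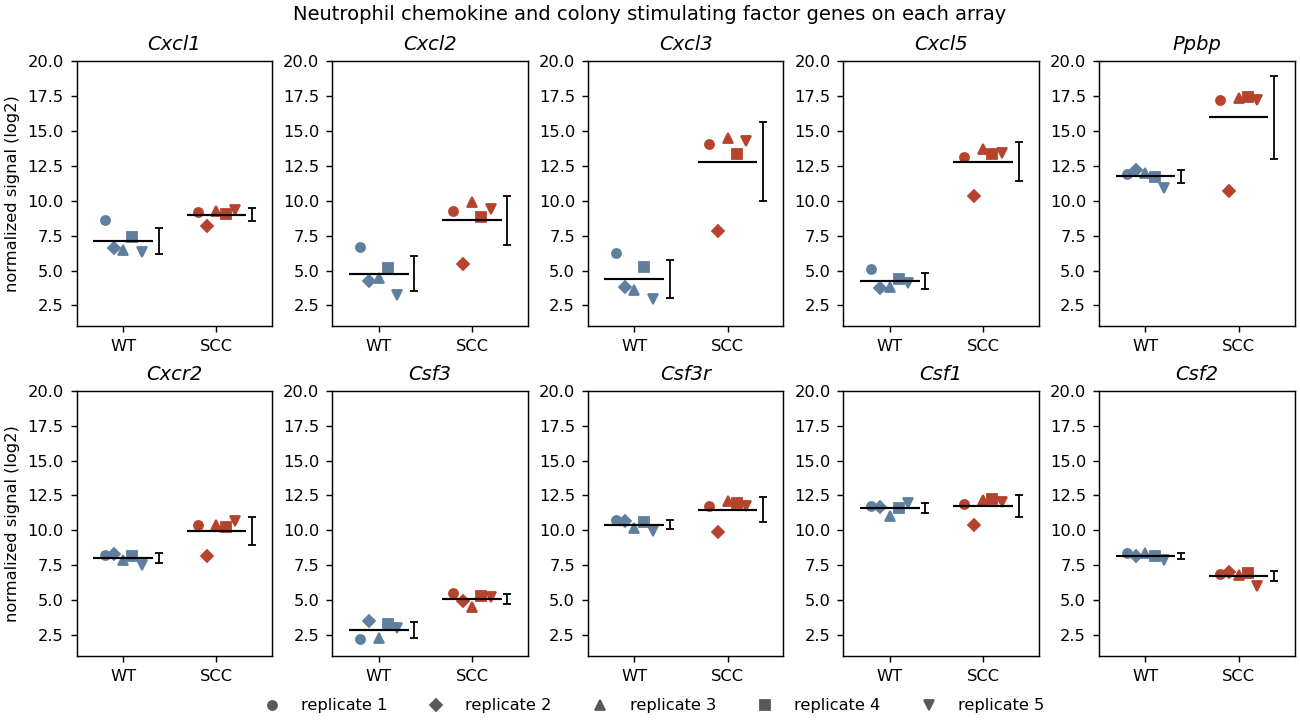
Normalized signal (log2, y axis) of the 10 genes on each of 5 WT (blue) and 5 SCC (red) arrays, with marker shapes for replicate numbers, a black line at each group's mean and a bracket of 1 SD to each side. Cxcl3 and Cxcl5 are higher in every tumour than in any lung, SCC replicate 2 (diamond) lies within or below the WT values for Cxcl1, Cxcl2, Ppbp, Cxcr2, Csf3r and Csf1, and Csf2 is the gene that is lower in every tumour.

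Cxcl5 and Cxcl3 were the chemokine genes among the members that stood above every lung in all 5 tumours. Cxcl5, a chemokine made largely by epithelial cells, was at 5.11, 3.78, 3.84, 4.41 and 4.11 on WT arrays 1 to 5 and at 13.15, 10.32, 13.74, 13.32 and 13.42 on SCC arrays 1 to 5. Every tumour was far above every lung, and even the lowest one, SCC replicate 2, was higher by 6.07 than the WT mean. The difference was 8.54 (SE 0.609, 95% interval 7.18 to 9.90), and 9.16 without SCC replicate 2, with a limma adjusted p of 8.21e-06 and an exact two-sided permutation p of 0.00794, the smallest that 5 against 5 arrays can give. Only 2 of 5 WT arrays had Cxcl5 well above background, so its WT level is near the limit of detection and the size of the difference rests on dim signals there.

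Cxcl3, a ligand of the same receptor, was at 6.27, 3.80, 3.61, 5.27 and 2.97 in WT and at 14.03, 7.80, 14.52, 13.36 and 14.27 in SCC. The groups did not overlap, but SCC replicate 2 lay 3.41 above the WT mean and more than 5 log2 units below every other tumour. Cxcl3 was higher in SCC by 8.41 (SE 1.27, 95% interval 5.58 to 11.25), with a limma adjusted p of 0.000503 and an exact permutation p of 0.00794. Without SCC replicate 2 the difference was 9.66. Here too only 2 WT arrays were well above background, and the same limit holds. With the normexp background correction, which lifts dim signals, the differences were 6.0 for Cxcl5 and 5.86 for Cxcl3, both still called.

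Cxcl2, also known as MIP-2, was at 6.68, 4.28, 4.48, 5.16 and 3.28 in WT and at 9.25, 5.49, 9.94, 8.87 and 9.38 in SCC. Of the tumours, 4 were above every lung and SCC replicate 2 lay inside the WT range, whose top was WT replicate 1. The mean rose from 4.78 ± 1.26 to 8.59 ± 1.77 (SD, n = 5 each), a difference of 3.81 (SE 0.881) or 14.0-fold, with a limma adjusted p of 0.00564. It was 4.58 without SCC replicate 2 and 2.04 with normexp.

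Cxcl1, also known as KC, was at 8.61, 6.62, 6.50, 7.44 and 6.33 in WT and at 9.21, 8.16, 9.30, 9.02 and 9.35 in SCC. WT replicate 1 exceeded SCC replicate 2, and the other 4 tumours were above every lung. The difference of 1.91 (SE 0.436, 95% interval 0.93 to 2.89) was a 3.76-fold rise with a limma adjusted p of 0.00527. WT replicate 1 was the highest WT array for Cxcl1, Cxcl2, Cxcl3 and Cxcl5 alike.

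Ppbp encodes pro-platelet basic protein, the precursor of the neutrophil attractant CXCL7, which platelets store in their granules. It was at 11.94, 12.18, 11.96, 11.69 and 10.93 in WT and at 17.21, 10.67, 17.35, 17.46 and 17.21 in SCC. The 4 tumours other than SCC replicate 2 lay between 17.21 and 17.46, above every lung, and SCC replicate 2 was below every lung. Ppbp was higher in SCC by 4.24 (SE 1.22, 95% interval 1.52 to 6.97), an 18.9-fold change with a limma adjusted p of 0.0165 and an exact permutation p of 0.0476. Without SCC replicate 2 the difference was 5.57.

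Markers of platelets and their precursors were examined beside Ppbp. Of 9 platelet markers tested, 0 were called higher and 5 lower in SCC, with a median difference of -1.39, and Tubb1 had no probe. Pf4, Itga2b, Gp1bb and Treml1 were not called. Gp9, a subunit of the platelet receptor for von Willebrand factor, was at 5.04 in SCC and 9.12 in WT, and fell by 4.09 (limma adjusted p 0.00206). Clec1b, the platelet receptor for podoplanin, fell by 3.59, Gp1ba, another subunit of the same von Willebrand factor receptor, by 3.28 and Gp5, which associates with that receptor, by 1.84. Their limma adjusted p values were 4.85e-05, 5.12e-05 and 3.83e-05. Gp1ba was well above background on 3 of 5 tumours and Gp9 on 4, so the sizes of these 2 falls rest partly on dim signals. The mean signal of the platelet markers was 6.17 to 6.92 on the tumours and 8.08 to 8.83 on the lungs. SCC replicate 2, the tumour with the lowest Ppbp, had the highest platelet marker mean of the tumours, 6.92. The part of platelets in the difference of Ppbp was not tested.

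**Figure D2:**
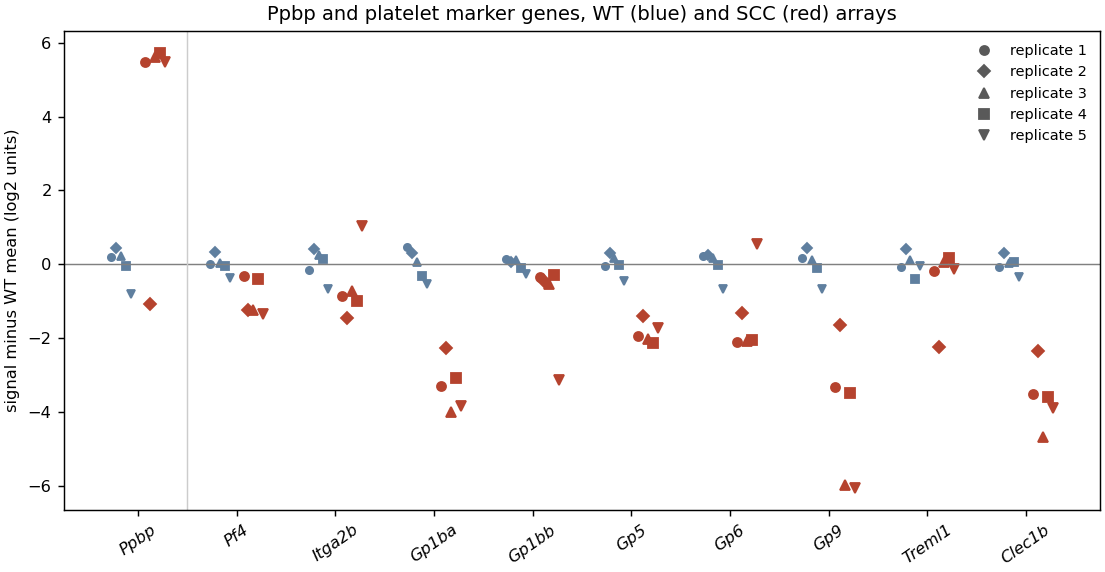
Signal of Ppbp and of 9 platelet marker genes on each array minus the WT mean of that gene (log2 units, y axis), WT in blue and SCC in red, with marker shapes for replicate numbers. Ppbp lies more than 5 units above the WT mean in 4 tumours and below it in SCC replicate 2, while Gp9, Clec1b, Gp1ba and Gp5 are below every WT value in all 5 tumours.

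In gene order along chromosome 5 the cluster runs Cxcl5, Ppbp, Pf4, Cxcl3, Cxcl15, Cxcl1 and Cxcl2. Between the risen ligand genes, Pf4 and Cxcl15 were not called. Pf4, which encodes platelet factor 4, lies next to Ppbp and was at 12.22, 12.56, 12.26, 12.18 and 11.85 in WT and at 11.89, 10.98, 10.99, 11.82 and 10.87 in SCC. Its difference was -0.91 with a limma adjusted p of 0.0104, short of 2-fold. Cxcl15, which encodes lungkine, a chemokine of lung epithelium, differed by -0.58 with a limma adjusted p of 0.0474, also short of 2-fold. It ranged from 14.40 to 15.62 in WT and from 14.22 to 14.79 in SCC. Probe sequences were not used here, so whether probes of these related genes also bind each other's transcripts was not tested.

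**Figure D3:**
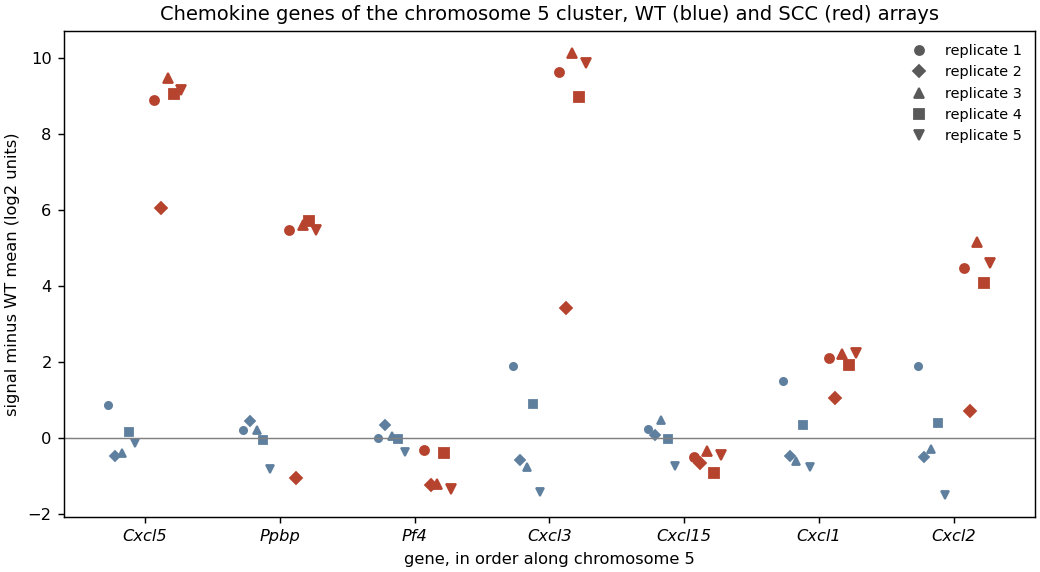
Signal of the 7 chemokine genes of the chromosome 5 cluster, in their order along the chromosome (x axis), on each array minus the WT mean of that gene (log2 units, y axis), WT in blue and SCC in red. The 5 ligand genes called higher stand on either side of Pf4 and Cxcl15, whose tumour values are near or below the WT mean.

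The receptor Cxcr2, through which these ligands act, rose with them. It was at 8.27, 8.33, 7.85, 8.19 and 7.51 in WT and at 10.36, 8.17, 10.42, 10.21 and 10.70 in SCC. All tumours but SCC replicate 2 were above every lung, and SCC replicate 2 lay 0.14 above the WT mean. Cxcr2 was higher by 1.94 (SE 0.440, 95% interval 0.96 to 2.93), a 3.84-fold change with a limma adjusted p of 0.00508. Its second, dimmer probe differed by 1.98 with a limma adjusted p of 0.0389. Cxcr1, which encodes a related receptor of such ligands, was higher by 1.45 with a limma adjusted p of 0.0176. The genes whose profile over the 10 arrays was closest to that of Cxcr2, among 15511 genes with each centred on its own mean, were the macrophage lysosomal gene Cd68, the nucleotide receptor gene P2ry2 and the G protein gene Gna15. Their root mean square distances were 0.166, 0.169 and 0.205 log2 units.

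Csf3, encoding G-CSF, was near background in normal lung. It was at 2.25, 3.50, 2.29, 3.31 and 3.02 in WT, never well above background, and at 5.49, 4.96, 4.54, 5.30 and 5.21 in SCC, well above background on all tumours but SCC replicate 3. The groups did not overlap, and SCC replicate 2 was among the other tumours. For each WT array, the higher of the Csf3 signal and the lowest signal of any probe well above background was taken. Against the mean of these, the mean of the tumours was 2.08-fold higher. SCC replicate 3 counts in the mean of the tumours, although Csf3 was not well above background there, so 2.08-fold is not a lower bound. The measured SCC mean was 5.10 ± 0.368 (SD, n = 5) and lay 2.22 above the measured WT mean of 2.87 ± 0.577, and the limma adjusted p of 0.000189 is that of this measured difference. With normexp the difference was 0.37, under 2-fold, and the call was lost. The closest profiles were those of the receptor kinase gene Mst1r and of the unnamed loci 2200002D01Rik and Gm4275, but Csf3 was not well above background on any lung or on SCC replicate 3, so no distance is given and their order rests largely on background signal.

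Csf3r, the receptor through which G-CSF acts on neutrophils and their precursors, was at 10.72, 10.66, 10.16, 10.61 and 9.95 in WT and at 11.73, 9.88, 12.09, 11.98 and 11.77 in SCC. The 4 other tumours were above every lung and SCC replicate 2 was below every lung. The difference was 1.07 (SE 0.400, 95% interval 0.18 to 1.96), or 2.10-fold, with a limma adjusted p of 0.0484. This call was the least stable of the 10 genes. It was kept without SCC replicate 2, with a difference of 1.47, and lost on leaving out any other single array, with an adjusted p of up to 0.107. The closest profiles to that of Csf3r were those of the leukocyte genes Tbxas1 (0.159), Itgb2 (0.162) and Cd53 (0.163).

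Csf2 was the gene that went down. GM-CSF transcript was at 8.36, 8.15, 8.39, 8.17 and 7.87 in WT and at 6.88, 6.99, 6.81, 6.95 and 6.05 in SCC. Every tumour was below every lung, including SCC replicate 2, and SCC replicate 5 was the lowest. Csf2 fell by 1.45 (SE 0.190, 95% interval -1.88 to -1.03), 2.73-fold, with a limma adjusted p of 0.000221 and an exact permutation p of 0.00794. Its probe was spotted 10 times on each array. With normexp the difference was -0.87 and under 2-fold. Of the markers of alveolar type 2 cells, 0 of 5 were called, and their mean was 15.72 to 15.82 in the lungs and 15.00 to 15.64 in the tumours. Of the T cell markers, 4 of 5 were called lower, with means of 9.24 to 9.82 in the lungs and 8.25 to 8.65 in the tumours. The part of these cells in the fall of Csf2 was not tested.

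Csf1 did not pass the test. It was at 11.78, 11.66, 11.05, 11.64 and 11.98 in WT and at 11.88, 10.42, 12.21, 12.26 and 12.02 in SCC. The groups overlapped, with SCC replicate 2 below every lung and 3 tumours above every lung. The difference was 0.14 (SE 0.345, 95% interval -0.63 to 0.91, limma adjusted p 0.763), and it changed sign to -0.48 within slide 2 and to -0.01 without WT replicate 3.

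**Figure D4:**
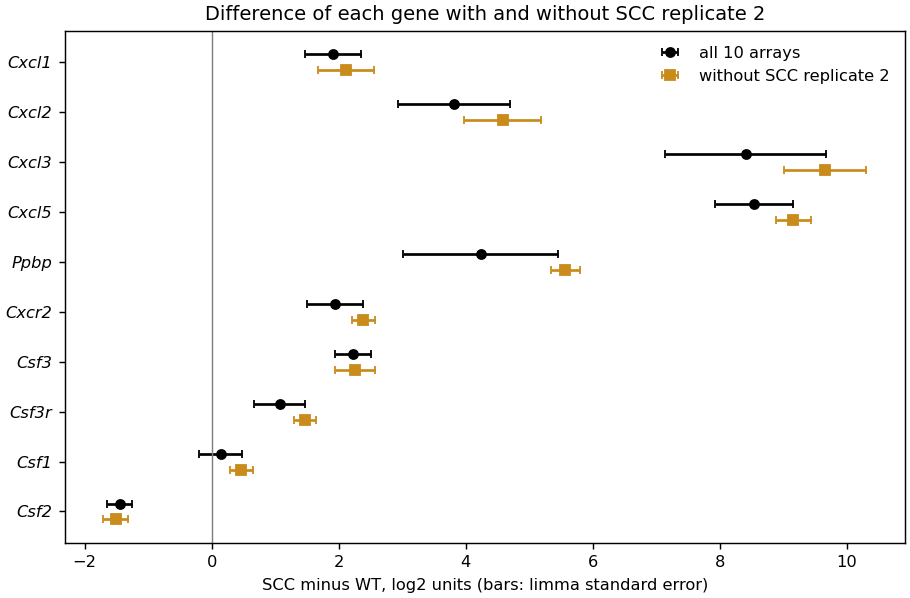
Difference SCC minus WT in log2 units (x axis) for each of the 10 genes, over all 10 arrays (black circles) and without SCC replicate 2 (orange squares), with bars of 1 standard error from limma. Leaving that tumour out moved Ppbp from 4.24 to 5.57 and Csf3r from 1.07 to 1.47 and left Csf3 and Csf2 within 0.1 of their values.

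Slide 2 is the only slide that held both groups, with 1 WT array and 3 tumours. Within it the differences were 2.56 for Cxcl1, 4.14 for Ppbp, 2.14 for Cxcr2, 1.28 for Csf3r and -0.98 for Csf2, each with the sign of the comparison over all arrays. Cxcl2, Cxcl3, Cxcl5 and Csf3 were not well above background on that WT array, so their measured differences of 4.95, 9.15, 8.30 and 1.98 there were taken against a background signal and are not sizes of change. With slide as a fixed block, Cxcl3 and Cxcl5 stayed called and the other 7 genes were no longer called, with limma adjusted p values from 0.0587 for Csf3 to 0.279 for Csf3r.

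Of 14 neutrophil markers tested, 8 were called higher and 0 lower (57.1%, median difference 1.67). S100a9, Retnlg, Mmp9, Camp, Mpo and Trem1 were not called on their brightest probes, although a dimmer probe of Trem1 was called higher (1.52, limma adjusted p 0.0190). Ly6g had no probe, and Ngp and Elane were too dim to be tested, Elane being well above background on 1 tumour and on no lung. Ltf, encoding lactoferrin, was higher by 8.80 (limma adjusted p 1.02e-07), Padi4, the enzyme that citrullinates histones in neutrophils, by 3.34 (2.58e-05), Cd177, a neutrophil surface protein, by 2.82 (0.000189) and Clec4d, a myeloid lectin, by 2.32 (0.00733). Ltf, Lcn2, S100a8 and S100a9 are also made by epithelium. The mean of the other 12 markers was 6.65 to 7.49 on the lungs, 7.18 on SCC replicate 2 and 8.49 to 8.92 on the other tumours. In SCC replicate 2, Ltf, Padi4 and Cd177 were 8.91, 3.53 and 2.81 above the WT mean, while Mmp9, S100a9 and Retnlg were at -1.50, -1.21 and -1.05 from it. Macrophage markers, which include Csf1r, had 5 of 10 called higher, with means of 12.28 to 12.72 on the lungs, 12.49 on SCC replicate 2 and 13.40 to 13.53 on the other tumours. Of the other cell types examined, 3 of 6 fibroblast and 5 of 6 cardiac muscle markers were called lower and none higher. The part of these cell types in the differences of Cxcr2, Csf3r and the ligand genes was not tested.

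Genes of the pathways that induce these chemokines and G-CSF, among them the antagonist Il1rn and the inhibitors Nfkbia and Tnfaip3, were examined as a list of 23, of which 20 were tested, 9 were called higher, 1 lower and 10 were not called (median difference 0.90). Of the 10, Il17rc differed by 0.89, and its dimmer probe was called, at 1.06 (limma adjusted p 0.000967). Il1f6, now called Il36a, an interleukin-36 cytokine of squamous epithelium, was at 3.95, 1.93, 1.92, 3.83 and 1.99 in WT, never well above background, and at 7.60, 6.27, 8.07, 8.92 and 8.85 in SCC. Set against the WT arrays in the same way as Csf3, it was 14.7-fold higher in SCC. The measured means were 7.94 in SCC and 2.72 in WT, and their difference had a limma adjusted p of 0.000121. Il1f9, now called Il36g, of the same family, was higher by 2.86 (limma adjusted p 0.000402). Il1rn, the antagonist of the interleukin-1 receptor, was higher by 4.21 (2.38e-05), with tumours from 11.83 to 14.11 and lungs from 8.91 to 9.33.

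Il6, an acute inflammatory cytokine, rose from 4.83 ± 0.926 to 8.49 ± 0.590 (SD, n = 5 each), by 3.67 (limma adjusted p 0.000147), without overlap. Interleukin-1 itself and TNF, which activate NF-kB, were also called. Il1a was higher by 2.70 (0.0132), Il1b by 1.65 (0.0142) and Tnf by 1.88 (0.00293). In SCC replicate 2, Il1a and Il1b were at -0.41 and -0.30 from the WT mean and Tnf 0.50 above it. Il1a lay within and Il1b below the range of the lungs there. This tumour also had the least Cxcl2, Cxcl3 and Ppbp, and it was the lowest tumour for 71.2% of all probes called higher. A link between these genes was not tested. Nfkbiz, encoding the NF-kB cofactor IkappaB-zeta, was higher by 2.11 (5.21e-05), and there SCC replicate 2, at 12.78, was the highest tumour of all.

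Il17a, the cytokine of T cells that induces Cxcl1, Cxcl5 and Csf3 in epithelium, was well above background on 0 of 5 tumours and on 1 of 5 lungs and was not tested. Its relative Il17f was higher by 2.04 (limma adjusted p 0.000107), from 3.59 to 4.58 in WT and from 5.65 to 6.50 in SCC. Only 1 WT array had Il17f well above background. Nfkbia, the inhibitor of NF-kB, was the only one of the list called lower. It fell by 1.09, which is just past 2-fold. Nfkbia was not called when arrays were scaled to their 75th percentile or with array quality weights. Its call was also lost without SCC replicate 2, alone or together with SCC replicate 5.

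**Figure D5:**
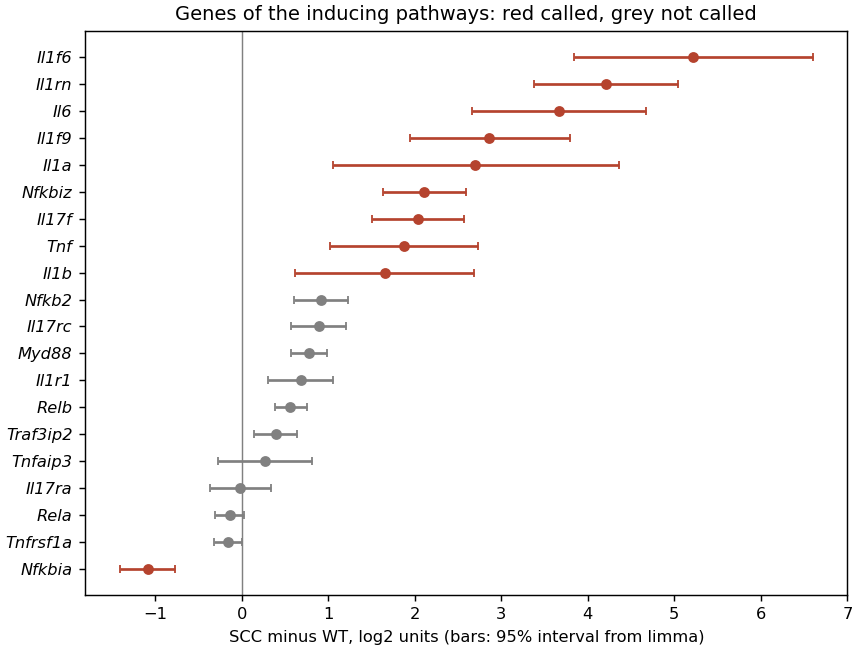
Difference SCC minus WT in log2 units (x axis) of the 20 tested genes of the inducing pathways with 95% intervals from limma, red where called and grey where not. Interleukin-36, interleukin-1, Il6, Tnf, Il17f and Nfkbiz transcripts lie above 1 with intervals that exclude 0, and Nfkbia is the single called gene below 0.

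Of the colony stimulating factor signalling genes, 18 were tested, 3 were called higher and 1 lower (22.2%, median difference 0.31), close to the 22.9% of all probes. Csf2rb, the beta chain shared by the receptors for GM-CSF, interleukin-3 and interleukin-5, was higher by 1.55 (limma adjusted p 0.00311), and Csf2rb2, a near-identical gene, by 1.52 (0.00258), so that either value may include transcript of the other. Csf2ra, the alpha chain specific for GM-CSF, differed by 0.46 (0.163) and Csf1r, the receptor for Csf1, by -0.50 (0.00517), both under 2-fold. Socs3, a feedback inhibitor induced by G-CSF and interleukin-6, was at 12.95 to 13.21 in WT and at 13.88 to 14.61 in SCC, higher by 1.37 (6.98e-05). Stat5b, a transcription factor downstream of GM-CSF, fell by 1.09 (4.42e-05), and its dimmer probe differed by -0.20.

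Of 15 neutrophil trafficking genes tested, 6 were called higher and 3 lower (60.0%, median difference 0.30). Itgam, the CD11b integrin of neutrophils and macrophages, was higher by 2.50 (limma adjusted p 0.00892), Ackr1, the decoy receptor that carries these chemokines across venules, by 2.16 (0.000103) and Ltb4r1, the receptor for the attractant leukotriene B4, by 1.66 (0.0184). Itgam was at 8.78 to 9.88 in WT, at 9.02 on SCC replicate 2 and at 12.02 to 12.60 on the other tumours. Ackr1 stood above every lung on all 5 tumours, although 6 of 7 endothelial markers were called lower (median difference -2.37). Cxcl12, which holds neutrophils in the marrow through Cxcr4, fell by 1.77 (1.33e-05) without overlap, and its dimmer probe differed by -0.51 (limma adjusted p 0.327). Selp, called at 1.01, likewise had a dimmer probe that was not called, at 0.73 (limma adjusted p 0.212). All lists were read from the same tumours, so the shares of the lists are descriptions beside the share of all probes.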

How the data were processed

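RNA of 5 WT lungs and 5 SCCs was read on Agilent whole mouse genome 4 x 44 one-colour arrays, with group and replicate given by each title. Per the file headers and the methods, the authors used Agilent Feature Extraction (version 12), and the deposited intensity of each spot was background-subtracted and error-modelled on a linear scale. The authors also deposited quantile-normalized log2 values, which correlated at r of at least 0.9999 with log2 of the quantile-normalized processed intensity. They chose the probe for each gene and otherwise served as an alternative.

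Control and outlier spots were dropped, repeated spots were averaged as log2, and 41174 probes were quantile-normalized. No spot was saturated, and 113 probes lacked a value on at least 1 array. A probe needed the well-above-background flag on at least 0.5 of its spots. Differences (SCC minus WT) came from limma 3.58.1 under R 4.3.3 (lmFit, eBayes, no covariates, two-sided), with Benjamini-Hochberg adjustment over 30374 probes, in place of the methods' one-way analysis of variance, run as an alternative. Every adjusted p is from limma unless another test is named. Exact two-sided permutation tests used all 252 splits of the arrays. The fit was tested on simulated data. Replicates are separate samples per the labels, p-values measure the spread between them, and 5 arrays a group limit the precision.

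Accessions were paired with symbols through RefSeq (GRCm38.p6), which named 28223 probes (68.5%). The files use another build, so the only coordinates are those of RefSeq promoters. Of 131 listed genes, 127 had a probe, and 1 other gene is not reported here. The 10 genes and all lists were chosen with earlier results of these data known. Named are the 10 genes and the receptors of their products, the 4 called genes with the largest differences in each of the inducing pathway, signalling, trafficking, neutrophil and platelet lists, Il17a, Il1a, Il1b, Tnf, Il6, Nfkbiz, the closest profiles of Csf3, Cxcr2 and Csf3r, Krt5 and Trp63. Pf4, Cxcl15, Il17f, Nfkbia, Lcn2, S100a8, S100a9, Mmp9, Retnlg, Camp, Mpo, Trem1, Itga2b, Gp1bb, Treml1, Tnfaip3, Il17rc, Selp, Xist and Ddx3y were named after their values were seen. Alternatives were the scaling, the deposited matrix, normexp (offset 50, on median signals of spot and surroundings), the filter, slide as a fixed or random block, a replicate block, array weights, the methods' t-test, the call rule, the probe for a gene, and leaving out arrays. Same-numbered WT and SCC arrays did not deviate together (correlations -0.10 to 0.01), so the numbers pair no samples.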

Additional observations from a re-analysis of the deposited data

Results flagged for a closer look

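In 13 of 38 groups of 5 arrays examined, the highest or lowest array lay apart from its nearest neighbour by more than 0.71 of the group's whole range. Chance gives this in about 1 in 20 independent groups. The 38 groups were read on the same arrays, so the 13 are not separate events and cannot be set against that rate. In 12 of the 13 that array was SCC replicate 2. For the 10 genes, its gap below the next tumour was 0.723 of the range for Cxcl1, 0.759 for Cxcl2, 0.828 for Cxcl3, 0.827 for Cxcl5, 0.963 for Ppbp, 0.805 for Cxcr2, 0.837 for Csf3r and 0.796 for Csf1. The same tumour was also the lowest in the mean of the neutrophil markers (0.780), the macrophage markers (0.872) and the squamous markers (0.902), and the highest in the endothelial markers (0.762), at 12.24 where the next tumour was at 11.45. For Csf2 the array apart was SCC replicate 5, at 6.05 where the next tumour was at 6.81 (0.805 of the range). Csf3 had no such array. SCC replicate 2 is thus a tumour with Cxcl3, Cxcl5 and Csf3 above every lung but with Cxcl1, Cxcl2, Ppbp, Cxcr2, Csf3r and Csf1 within or below the range of the lungs. In limma's array quality weights it received 0.131 and SCC replicate 5 received 0.145, where the highest weight was 2.83.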

How the results depend on the processing

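Of the 10 genes, 9 were called, and 8 to 9 on leaving out each array in turn, while all probes called ranged from 6385 to 8135 around 6954. Only probes well above background on all 10 arrays left 6 of the genes, of which 5 were called. With slide as a fixed block 2 of the genes and 2989 of all probes were called (1402 higher, 1587 lower), 2 signalling genes in place of 4, and 2 trafficking genes in place of 9, where a single WT array shares a slide with tumours. Normexp, which used median in place of mean spot signals because the files hold only the former, called 3969 probes (1909 higher, 2060 lower) and 6 of the genes, since Csf3, Csf3r and Csf2 came under 2-fold. An adjusted p alone called 14878 probes (6790 higher, 8088 lower) and 16 of the genes of the inducing pathways in place of 10. Csf1 changed sign to -0.48 with the slide block and ranged from -0.01 to 0.49 with arrays left out, -0.01 being without WT replicate 3. Csf3r lost its call under 14 of 23 alternatives, among them the replicate block (8 genes called, Csf3r adjusted p 0.0865). The replicate block changed the call of no other of the 10 genes. Scaling to the 75th percentile moved the median of all probes from -0.09 to 0.03 and the share of higher calls from 43.3% to 53.2% and kept the calls of the 10 genes. With the methods' t-test, 5867 probes differed by 2-fold or more with an unadjusted p below 0.01, 7 of the genes among them, and 8 of the genes were called after Benjamini-Hochberg adjustment. The slide as a random block (correlation -0.0174), array weights, the deposited matrix and leaving out both SCC replicates 2 and 5 kept all 9 calls. Where no reason is given, the cause was not tested.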
